A study of Mus musculus with 2 samples.

Results

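The proteasome subunit genes are the genes whose symbol begins with Psma, Psmb, Psmc, Psmd or Psme followed by a number, and 45 of the 31053 genes in the deposited single-cell matrices met that rule. By role, 7 encode the alpha ring of the core particle, 4 its non-catalytic beta subunits, 3 the constitutive catalytic subunits (Psmb5, Psmb6, Psmb7) and 3 the inducible ones (Psmb8, Psmb9, Psmb10). Another 6 encode the ATPases that unfold substrates, 14 encode other proteins of the regulatory particle or its assembly, and 4 encode activators: Psme1 and Psme2, which form the PA28 cap, Psme3 and Psme4. The rule also took in the testis-specific Psma8, the thymus-specific Psmb11, Psme2b, a retrocopy of Psme2, and Psmc3ip, a meiotic recombination factor that is no subunit and only shares the prefix.

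The proteasome is the barrel-shaped protease that degrades ubiquitin-tagged proteins in the cytosol and nucleus. Interferon-gamma induces Psmb8, Psmb9 and Psmb10, which take the places of Psmb5, Psmb6 and Psmb7 in newly assembled particles. The resulting immunoproteasome, with the PA28 cap, favours peptides that fit MHC class I molecules, and lymphocytes and dendritic cells carry it without induction.

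The Cd36-/- library came from mice labelled LysM-Cre (x) floxed CD36, and the Cd36 fl/fl library from mice labelled floxed CD36. LysM-Cre acts in macrophages, monocytes and neutrophils and does not target lymphocytes. All mice were 10 to 14 weeks old and had been given 1 mg of zymosan, particles of yeast cell wall that set off inflammation without infection, by injection into the peritoneum, and on day 3 all cells of the cavity were collected. Each library pooled 4 replicates that cannot be told apart, which leaves 1 library per genotype, so differences between genotypes have no test and no check by replicates.

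The libraries held 116600732 UMIs (molecules counted once each) in 16543 barcodes for Cd36-/- and 117238057 UMIs in 15537 barcodes for fl/fl, and 383 barcode sequences occurred in both. After filtering, 14958 Cd36-/- cells with a median of 6563.5 UMIs and 13899 fl/fl cells with a median of 6878 UMIs were used. Cells were clustered without the proteasome genes, and each class was named here from marker genes, so a name means cells that look like that type. Clusters without a clear name held 7.27% of Cd36-/- cells and 6.78% of fl/fl cells. Levels are given in CPM, the UMIs of a gene scaled to 1000000 UMIs of a class in a library. They come from transcript 3′ ends and are not divided by gene length. Ratios are Cd36-/- over fl/fl on the log2 scale, and the values in brackets after a ratio or share are exact 95% limits for counting error alone. Cd36 itself stood at 171 CPM in Cd36-/- macrophages and 242 CPM in fl/fl macrophages, but the sources used here do not give the deleted exons, so this level does not check the deletion.

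Levels of proteasome transcripts differed between cell classes in much the same order in both libraries, and the spread was wide for the inducible Psmb8 and Psmb9. Summed over all 45 genes, type 1 conventional dendritic cells (cDC1), which present antigen on MHC class I, had 8250 CPM in Cd36-/- and 8046 CPM in fl/fl. The resident, Gata6-dependent large peritoneal macrophages (LPM) had 3982 CPM in Cd36-/- and 3493 CPM in fl/fl. Without Psmb8, Psmb9, Psmb10, Psme1 and Psme2 the distance shrank, with 4762 CPM in Cd36-/- cDC1 and 4793 CPM in fl/fl cDC1, against 3135 CPM in Cd36-/- LPM and 2815 CPM in fl/fl LPM. The cDC1 values rest on 38 Cd36-/- cells and 35 fl/fl cells. Neutrophils, with 106 Cd36-/- cells and 132 fl/fl cells, had 4003 CPM over all members in Cd36-/- and 3240 CPM in fl/fl. They were thus near LPM in Cd36-/-. In fl/fl they stood below LPM, but their counting interval (2929 to 3576 CPM) includes the LPM level.

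The larger classes lay between cDC1 and LPM. Macrophages low in Gata6, which made up most of the macrophage class, had 5749 CPM in Cd36-/- and 5341 CPM in fl/fl. Type 2 conventional dendritic cells (cDC2) had 5702 CPM in Cd36-/- and 5171 CPM in fl/fl, T cells 5477 CPM in Cd36-/- and 4792 CPM in fl/fl, and natural killer (NK) cells 5515 CPM in Cd36-/- and 4906 CPM in fl/fl. B cells were lowest of the lymphocytes, with 4739 CPM in Cd36-/- and 4551 CPM in fl/fl. In each of these classes the sum was higher in the Cd36-/- library. It was lower in mesothelial and fibroblast cells, with 5523 CPM in Cd36-/- and 6918 CPM in fl/fl (log2 ratio -0.32, -0.45 to -0.20), and in migratory dendritic cells, with 6838 CPM in Cd36-/- and 7424 CPM in fl/fl (-0.12, -0.26 to 0.02), classes of at most 32 cells per library.

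Psmb9, the inducible counterpart of Psmb6, stood at 667 CPM in Cd36-/- cDC1 and 677 CPM in fl/fl cDC1, against 109 CPM in Cd36-/- LPM and 82.0 CPM in fl/fl LPM. The cDC1 level was thus 6.13-fold that of LPM in Cd36-/- (5.36 to 6.99) and 8.26-fold in fl/fl (7.32 to 9.30). Psmb8, the counterpart of Psmb5, had 1312 CPM in Cd36-/- cDC1 and 1202 CPM in fl/fl cDC1, against 222 CPM in Cd36-/- LPM and 183 CPM in fl/fl LPM. Both genes were highest in cDC1, although migratory dendritic cells came near it for Psmb8, with 947 CPM in Cd36-/- and 1007 CPM in fl/fl. Psme1, the alpha subunit of PA28, was 4.78-fold higher in cDC1 than in LPM in Cd36-/- and 4.54-fold higher in fl/fl.

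Psmb10, the counterpart of Psmb7, had a flatter profile and was not highest in cDC1. It had 179 CPM in Cd36-/- cDC1 (138 to 228) and 161 CPM in fl/fl cDC1 (127 to 201), and these intervals include the levels of Gata6-low macrophages, 210.4 CPM in Cd36-/- and 179 CPM in fl/fl. The LPM levels, given below, were lower than those of cDC1 in both libraries, in fl/fl outside the cDC1 interval. Psmb10 in cDC1 was 1.41-fold its cDC2 level in Cd36-/- (1.05 to 1.89) and 1.45-fold in fl/fl (1.11 to 1.87). The constitutive catalytic genes also varied less than Psmb8 and Psmb9. From LPM to cDC1 they differed by 1.46-fold (Psmb5), 1.66-fold (Psmb6) and 2.25-fold (Psmb7) in Cd36-/-, and by 1.89-fold, 1.74-fold and 2.34-fold for the same genes in fl/fl. Psma7, the alpha ring gene with the most UMIs of all members in macrophages, was 1.08-fold higher in cDC1 than in LPM in Cd36-/- (0.910 to 1.26) and 1.20-fold higher in fl/fl (1.04 to 1.39).

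**Figure D1:**
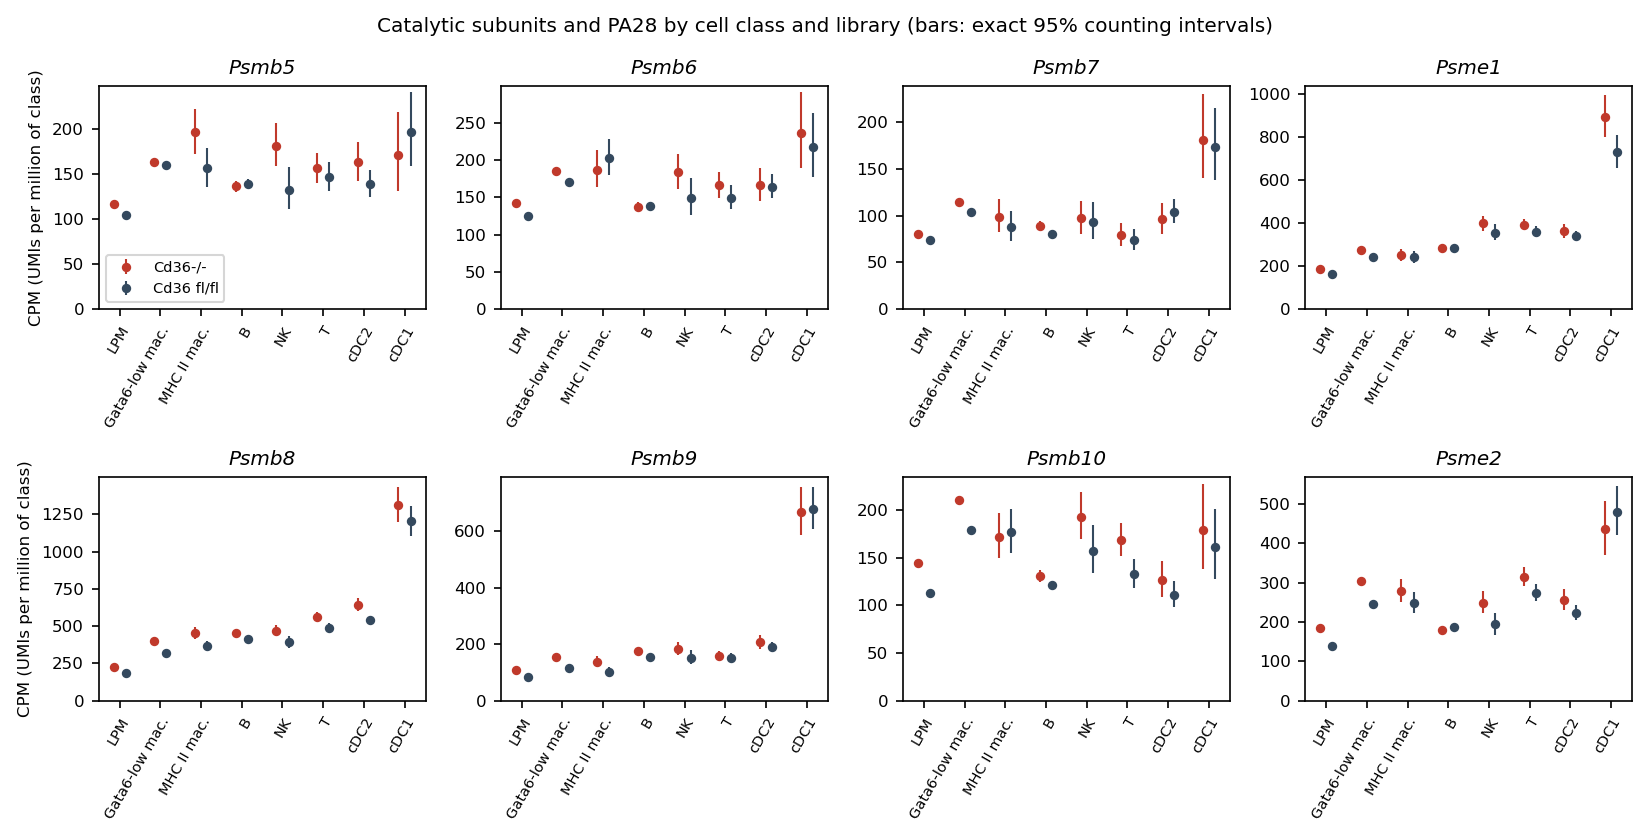
Level of the constitutive catalytic genes, the inducible catalytic genes and the PA28 genes (y axis, CPM) by cell class (x axis), with Cd36-/- at the left of each pair and fl/fl at the right; bars are exact 95% counting intervals. Psmb8 (1312 CPM in Cd36-/- and 1202 CPM in fl/fl) and Psmb9 (667 CPM in Cd36-/- and 677 CPM in fl/fl) stand highest in cDC1, while Psmb10 does not.

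The plot of subunit levels shows a steep profile for Psmb8, Psmb9 and Psme1 and a flatter one for Psmb10 and the constitutive genes. Over 11 classes and sub-classes in both libraries, which gives 22 points that share libraries and differ in depth, the gene whose level was most like the sum of Psmb8, Psmb9 and Psmb10 was Psme1, with a Pearson correlation of 0.95. Tap1, a subunit of the transporter that carries peptides into the endoplasmic reticulum, came next at 0.88, followed by Rbm3, an RNA-binding protein gene, at 0.84, Fnbp1 at 0.84 and the surface receptor gene Slamf7 at 0.82. Tap1 had 160 CPM in Cd36-/- cDC1 and 159 CPM in fl/fl cDC1, against 32.5 CPM in Cd36-/- LPM and 25.6 CPM in fl/fl LPM. These correlations were ranked over 7047 genes and describe classes, not replicates.

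Psmb8, Psmb9 and Tap1 lie next to each other in the MHC region of chromosome 17, and Psme1 and Psme2 lie 5911 bases apart on chromosome 14. RefSeq promoter windows of the GRCm38.p6 build, from 250 bases before to 50 after the transcript start, were matched to 38 of the 45 members. Those of the inducible catalytic genes and PA28 are printed after their names, 5′ to 3′, beside that of Psmb5 as a constitutive counterpart. The windows are chr17:34187281-34187580 on the minus strand for Psmb9, chr17:34197945-34198244 on the plus strand for Psmb8, chr8:105938343-105938642 on the minus strand for Psmb10, chr14:55578244-55578543 on the plus strand for Psme1, chr14:55591052-55591351 on the minus strand for the first Psme2 window and chr14:54617946-54618245 on the minus strand for Psmb5. The Psmb9 window shares 275 bases with that of Tap1, which is read in the opposite direction. Capitals mark matches, on either strand, to either of 2 motifs. These are the interferon response element bound by IRF factors, searched as GAAA, any 2 bases and GAAA, and the antioxidant response element bound by NRF1 and NRF2, searched as TGACNNNGC. No matches overlapped.
Psmb9: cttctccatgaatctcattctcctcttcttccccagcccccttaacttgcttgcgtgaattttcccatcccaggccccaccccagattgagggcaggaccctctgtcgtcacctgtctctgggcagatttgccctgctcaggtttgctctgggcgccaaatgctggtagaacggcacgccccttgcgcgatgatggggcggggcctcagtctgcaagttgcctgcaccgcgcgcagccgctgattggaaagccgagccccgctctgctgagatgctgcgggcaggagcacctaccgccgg
Psmb8: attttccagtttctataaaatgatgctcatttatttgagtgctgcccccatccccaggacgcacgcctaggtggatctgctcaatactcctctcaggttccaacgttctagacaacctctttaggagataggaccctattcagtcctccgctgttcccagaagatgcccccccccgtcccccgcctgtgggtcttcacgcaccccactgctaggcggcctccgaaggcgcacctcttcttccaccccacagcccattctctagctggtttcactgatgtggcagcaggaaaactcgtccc
Psmb10: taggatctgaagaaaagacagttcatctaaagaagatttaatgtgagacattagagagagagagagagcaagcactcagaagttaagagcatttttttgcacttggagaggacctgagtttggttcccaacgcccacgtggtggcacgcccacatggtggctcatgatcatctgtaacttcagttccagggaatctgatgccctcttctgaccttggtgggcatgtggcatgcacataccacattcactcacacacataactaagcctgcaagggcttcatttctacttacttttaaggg
Psme1: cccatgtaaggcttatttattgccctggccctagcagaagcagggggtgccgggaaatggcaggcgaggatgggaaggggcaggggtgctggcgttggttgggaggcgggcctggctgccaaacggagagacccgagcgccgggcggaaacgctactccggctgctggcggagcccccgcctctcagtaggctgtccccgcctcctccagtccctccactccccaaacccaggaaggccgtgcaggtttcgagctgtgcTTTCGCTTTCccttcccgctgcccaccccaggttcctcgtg
Psme2: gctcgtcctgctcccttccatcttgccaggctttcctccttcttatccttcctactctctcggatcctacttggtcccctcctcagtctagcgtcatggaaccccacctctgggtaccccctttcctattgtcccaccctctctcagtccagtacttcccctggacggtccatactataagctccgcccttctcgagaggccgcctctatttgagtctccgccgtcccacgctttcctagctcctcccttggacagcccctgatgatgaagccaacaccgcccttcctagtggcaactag
Psmb5: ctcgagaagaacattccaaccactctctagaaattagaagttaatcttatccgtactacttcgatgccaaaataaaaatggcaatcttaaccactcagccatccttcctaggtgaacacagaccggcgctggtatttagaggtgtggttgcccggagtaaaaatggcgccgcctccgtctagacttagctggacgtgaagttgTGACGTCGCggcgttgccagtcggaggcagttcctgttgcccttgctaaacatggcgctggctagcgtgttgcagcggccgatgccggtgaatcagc

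Psme1 held an interferon response element on the reverse strand at positions 9 to 18 from its start, and Psmb5 TGACGTCGC at positions -47 to -39. Psmb8, Psmb9, Psmb10 and Psme2 held none of these letters in the windows shown. Over all 32851 windows in the table, 3.44% held the interferon response element and 12.4% the antioxidant response element. Among the 38 members, 4 held the first (Psmb3, Psmd4, Psmd9, Psme1) and 6 the second (Psmb5, Psmb6, Psmc6, Psmd12, Psmd9, Psme4). A match describes letters and is not a bound site.

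The balance of inducible and constitutive catalytic transcripts was measured as the share of Psmb8, Psmb9 and Psmb10 in the UMIs of all 6 catalytic genes. It is read between classes and libraries and does not give the make-up of particles, since 3′ counting can favour one gene over another. Of the short stretches of sequence compared near the 3′ end of Psmb5, 62.9% also occur in Gm3375 or Psmb5-ps, and reads could be split between them. This figure was 9.63% for Psmb6, 4.81% for Psmb7 and 0% for each of Psmb8, Psmb9 and Psmb10. The Psmb5 levels are thus less certain, and their effect on the shares was not tested. In cDC1 the share was 78.6% in Cd36-/- (75.9 to 81.1) and 77.6% in fl/fl (75.2 to 79.9). T cells had 68.9% in Cd36-/- and 67.7% in fl/fl, cDC2 69.7% in Cd36-/- and 67.3% in fl/fl, B cells 67.8% in Cd36-/- and 65.8% in fl/fl, and NK cells 64.6% in Cd36-/- and 65.2% in fl/fl. Macrophages lay below these classes in both libraries, with 61.3% in Cd36-/- and 57.8% in fl/fl.

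The small classes marked the ends of the range. Migratory dendritic cells, with 74.1% in 13 Cd36-/- cells (67.0 to 80.5) and 77.0% in 15 fl/fl cells (71.6 to 81.9), overlapped cDC1. Mesothelial and fibroblast cells were lowest, with 51.9% in Cd36-/- (43.8 to 59.8) and 43.1% in fl/fl (37.0 to 49.5). They held macrophage marker transcripts at 53.0% of the macrophage level in Cd36-/- and 32.3% in fl/fl, whose part in these shares was not tested. Neutrophils lay between, with 61.9% in Cd36-/- (51.4 to 71.5) and 50% in fl/fl (38.1 to 61.9), intervals that overlap. Their inducible catalytic genes held only 60 UMIs in Cd36-/- and 37 UMIs in fl/fl. These gave 653 CPM in Cd36-/- and 304 CPM in fl/fl (log2 ratio 1.10, 0.49 to 1.74).

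**Figure D2:**
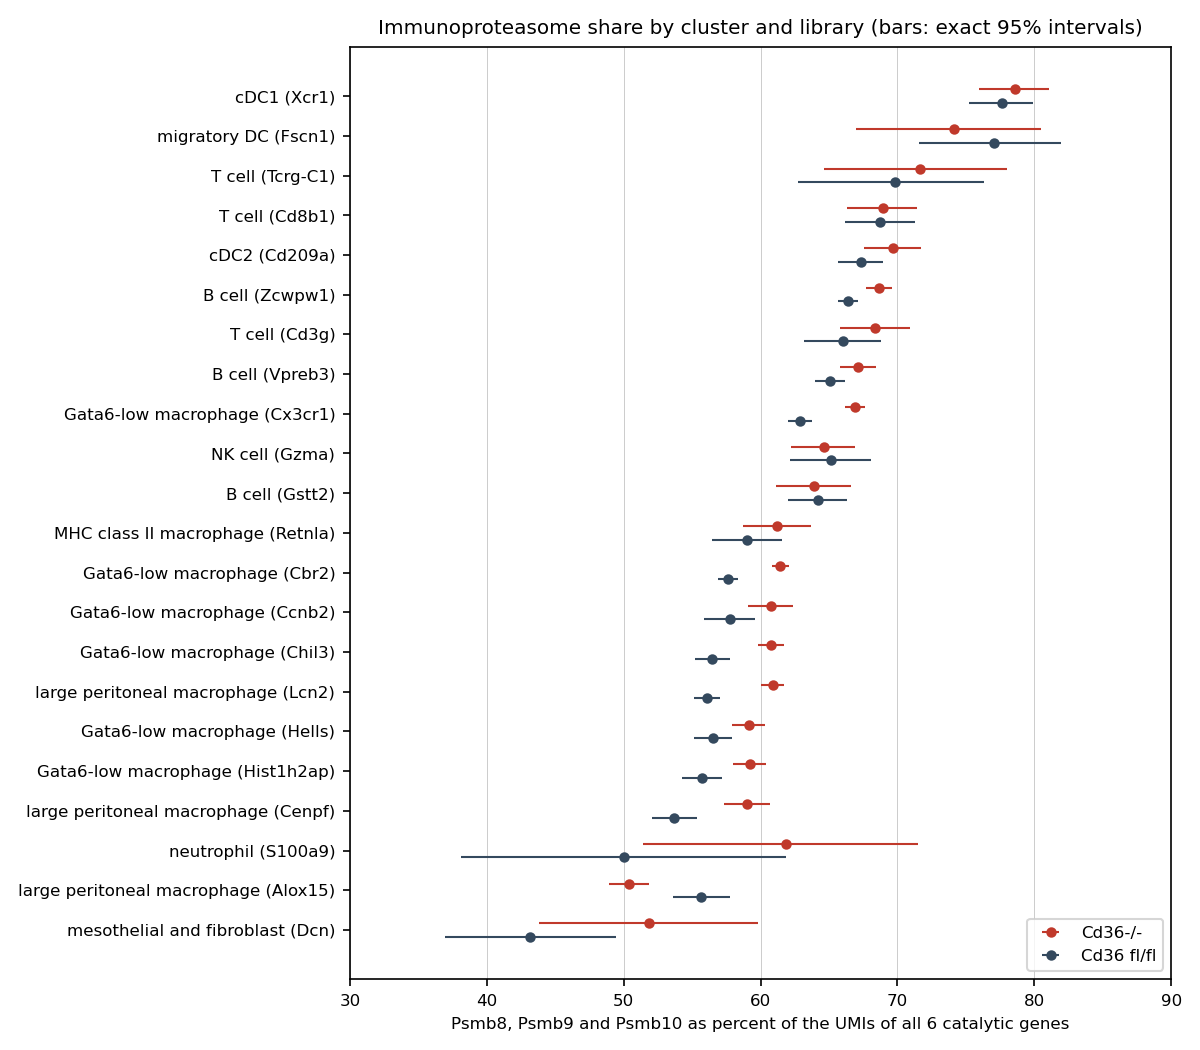
Share of Psmb8, Psmb9 and Psmb10 in the UMIs of the 6 catalytic genes (x axis, percent) for each named cluster (y axis, with its leading gene), with Cd36-/- drawn above fl/fl; bars are exact 95% intervals. In the Alox15 cluster of large peritoneal macrophages the Cd36-/- share, 50.4%, lies below the fl/fl share, 55.7%, whereas in the other 9 macrophage clusters the Cd36-/- share lies above.

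By catalytic site, the pairs did not move alike between classes. In cDC1, Psmb8 made up 88.5% of the Psmb8 and Psmb5 UMIs in Cd36-/- and 85.9% in fl/fl, against 69.8% in Cd36-/- macrophages and 66.2% in fl/fl macrophages. Psmb9 made up 73.9% of the Psmb9 and Psmb6 UMIs in Cd36-/- cDC1 and 75.7% in fl/fl cDC1, against 44.6% in Cd36-/- macrophages and 39.7% in fl/fl macrophages. The third pair ran the other way. Psmb10 made up 49.6% of the Psmb10 and Psmb7 UMIs in Cd36-/- cDC1 (40.8 to 58.4) and 48.1% in fl/fl cDC1 (40.2 to 56.2), against 64.6% in Cd36-/- macrophages (64.0 to 65.2) and 62.6% in fl/fl macrophages (61.8 to 63.3). The high share of cDC1 thus came from the sites of Psmb8 and Psmb9.

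Between genotypes, the inducible catalytic genes and PA28 were higher in Cd36-/- macrophages and the rest of the core particle was slightly higher. The regulatory particle was near even over the whole class, though not in each sub-class. Macrophages numbered 9262 in Cd36-/- and 7200 in fl/fl. Psmb9 had 138 CPM in Cd36-/- and 103 CPM in fl/fl, a log2 ratio of 0.42 (0.38 to 0.46). Psmb8 had 343 CPM in Cd36-/- and 277 CPM in fl/fl (0.31, 0.28 to 0.34), and Psmb10 had 188 CPM in Cd36-/- and 157 CPM in fl/fl (0.26, 0.23 to 0.30). Each inducible catalytic gene thus lay above its fl/fl level by more than counting error. Psme2, the beta subunit of PA28, had 266 CPM in Cd36-/- and 211 CPM in fl/fl (0.33, 0.30 to 0.36), and Psme1 had 246 CPM in Cd36-/- and 214 CPM in fl/fl (0.20, 0.17 to 0.23). The Psme2 values are less certain, since 71.4% of the 31-base words near its 3′ end also occur in Psme2b or the pseudogene Gm7928, and reads could be split between them.

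Of the 45 members, 42 reached a mean of 10 CPM in macrophages and were compared. Psmb9 and Psme2, that is 2 of 42, were at least 25% higher in Cd36-/-, where 1.22% of all 6542 genes compared were that much higher. None was at least 20% lower, against 2.03% of all genes. In direction, 31 members were higher and 11 lower, with a median log2 ratio of 0.07, while 44.0% of all genes compared were higher and their median was -0.02. Ranked by ratio among the 6542 genes, Psmb9 was number 39, Psme2 number 78, Psmb8 number 91 and Psmb10 number 165. The members under the level limit were Psmc3ip, with 4.65 CPM in Cd36-/- and 4.31 CPM in fl/fl, Psma8, with 1.31 CPM in Cd36-/- and 1.05 CPM in fl/fl, and Psmb11, with 2 UMIs in Cd36-/- and 0 in fl/fl.

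**Figure D3:**
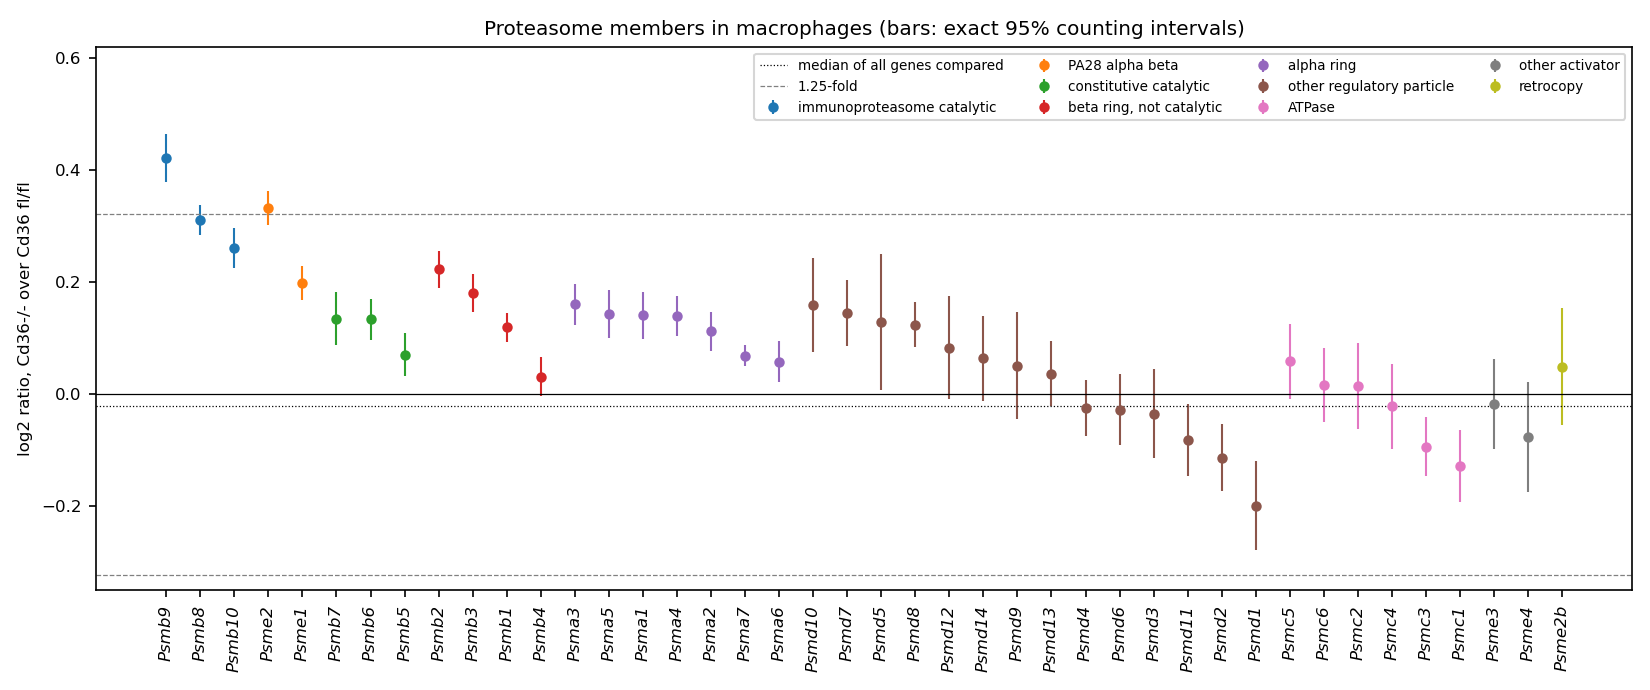
Log2 ratio of Cd36-/- over fl/fl in macrophages (y axis) for the 42 members compared (x axis), coloured by role; bars are exact 95% counting intervals, dashed lines mark 25% higher and 20% lower, and the dotted line marks the median of all genes compared, -0.02. Inducible catalytic and PA28 members lie between 0.20 and 0.42, and the ATPases between -0.13 and 0.06.

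Within the core particle, Psmb5, the constitutive chymotrypsin-like subunit, had 148 CPM in Cd36-/- and 141 CPM in fl/fl macrophages (0.07, 0.03 to 0.11). The caspase-like Psmb6 (0.13) and the trypsin-like Psmb7 (0.14) were close to Psmb5, whose shared sequence is described above. The inducible catalytic genes together gave 670 CPM in Cd36-/- and 537 CPM in fl/fl (0.32, 0.30 to 0.34), above the ratio of the constitutive ones (0.11, 0.09 to 0.14). The 7 alpha ring genes, which form the gate of the barrel, were all higher, by 0.06 to 0.16, and among them Psma7 had 598 CPM in Cd36-/- and 570 CPM in fl/fl. The 4 non-catalytic beta genes were higher by 0.03 to 0.22. Psmb1 had the most UMIs of them, with 337 CPM in Cd36-/- and 310.1 CPM in fl/fl, and Psmb2 the highest ratio, with 214 CPM in Cd36-/- and 183 CPM in fl/fl (0.22, 0.19 to 0.26).

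The regulatory particle did not share this direction as a whole. Of its 6 ATPases 3 were higher and 3 lower, between -0.13 for Psmc1 and 0.06 for Psmc5. Psmc3, the ATPase with the most UMIs, had 76.1 CPM in Cd36-/- and 81.2 CPM in fl/fl. The 14 other genes of the particle had a median of 0.04 and ran from -0.20 to 0.16. Psmd8, a lid subunit, had the most UMIs of them, with 137 CPM in Cd36-/- and 126 CPM in fl/fl. Psmd1, the large scaffold of the base, had the lowest ratio, with 32.1 CPM in Cd36-/- and 36.9 CPM in fl/fl (-0.20, -0.28 to -0.12), and 74.4% of its 3′ words also occur in a second gene model. Of the other activators, Psme3 had 32.9 CPM in Cd36-/- and 33.3 CPM in fl/fl (-0.02, -0.10 to 0.06), and Psme4, known as PA200, had 22.1 CPM in Cd36-/- and 23.3 CPM in fl/fl (-0.08, -0.17 to 0.02). The intervals of both include 0. By sub-class, the summed ATPases were higher in Cd36-/- LPM (0.07, 0.02 to 0.12), which include the Alox15 cluster described below. That cluster had 0.46 (0.34 to 0.57), against 0.01 in the LPM cluster led by Lcn2 (-0.06 to 0.08). In the LPM cluster led by Cenpf the ATPases were lower (-0.15, -0.27 to -0.04). They were also lower in Cd36-/- Gata6-low macrophages (-0.08, -0.11 to -0.05). The 14 other genes of the regulatory particle summed to a ratio of 0.10 in LPM (0.07 to 0.14) and -0.01 in Gata6-low macrophages (-0.03 to 0.02). Within LPM these genes had 0.40 in the Alox15 cluster, 0.05 in the Lcn2 cluster and 0.002 in the Cenpf cluster. Regulatory particle genes were thus clearly higher in 1 LPM cluster and not across LPM.

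The inducible share in macrophages, 61.3% in Cd36-/- (60.9 to 61.6) and 57.8% in fl/fl (57.4 to 58.2), differed by 3.45 percentage points (2.95 to 3.95), and the site pairs given above were each higher in Cd36-/-. Per cell, Psmb8, Psmb9 and Psmb10 together had a median of 5.94 per 10000 UMIs in Cd36-/- macrophages (quartiles 3.64 and 8.71) and 4.62 in fl/fl macrophages (quartiles 2.79 and 6.97). The cells of the libraries overlapped widely, and both quartiles were higher in Cd36-/-. Macrophages had a median of 8262.5 UMIs in Cd36-/- and 9320.5 UMIs in fl/fl, and the part of this depth in the ratios was not tested.

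Both large macrophage sub-classes had higher inducible genes in Cd36-/-. In LPM, Psmb9 had 109 CPM in Cd36-/- and 82.0 CPM in fl/fl (0.41, 0.32 to 0.49), Psme2 had 186 CPM in Cd36-/- and 139 CPM in fl/fl (0.42, 0.35 to 0.48), and Psmb10 had 144 CPM in Cd36-/- and 113 CPM in fl/fl (0.35, 0.28 to 0.42). Psmd14, the deubiquitinase of the lid, had 29.7 CPM in Cd36-/- and 23.1 CPM in fl/fl (0.36, 0.20 to 0.52). These 4 of 42 members were at least 25% higher in Cd36-/- LPM, where 2.61% of all genes were, and none was at least 20% lower, against 3.99%. In direction, 37 of the 42 were higher, with a median of 0.16, where 47.7% of all genes were higher with a median of -0.01. The LPM clusters differed in this. Members were higher in 40 of 42 cases in the Alox15 cluster (median 0.39), where Psmd14 had 36.6 CPM in Cd36-/- and 18.5 CPM in fl/fl. In the cluster led by Lcn2, 33 of 42 were higher (median 0.10), where 44.3% of all genes were. In the one led by Cenpf, 22 of 43 were higher (median 0.0007), where 42.7% of all genes were. In Gata6-low macrophages Psmb9 alone was at least 25% higher, where 1.63% of all genes were, with 152 CPM in Cd36-/- and 114 CPM in fl/fl (0.42, 0.37 to 0.47), and none was at least 20% lower, against 2.89%. Psmb8 lay just inside that limit, with 399.7 CPM in Cd36-/- and 321 CPM in fl/fl (0.32, 0.28 to 0.35).

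Across the 10 macrophage clusters, Psmb8, Psmb9, Psme1 and Psme2 were higher in Cd36-/- in every cluster. The ratio of Psmb8 ran from 0.20 to 0.35 and that of Psmb9 from 0.05 to 0.64, and Psmb10 was higher in 9 of the 10. The constitutive genes were mixed, with Psmb5 higher in 7 clusters, Psmb6 in 8 and Psmb7 in 8. The inducible share was higher in Cd36-/- in 9 of the 10 clusters, by 2.21 to 5.29 points. The smallest of these differences, in the cluster led by Retnla, had an interval that includes 0 (-1.34 to 5.76). The clusters come from the same pair of libraries and are not replicates. The share was highest in the cluster led by Cx3cr1 and Ccr2, with 66.9% in Cd36-/- and 62.9% in fl/fl.

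**Figure D4:**
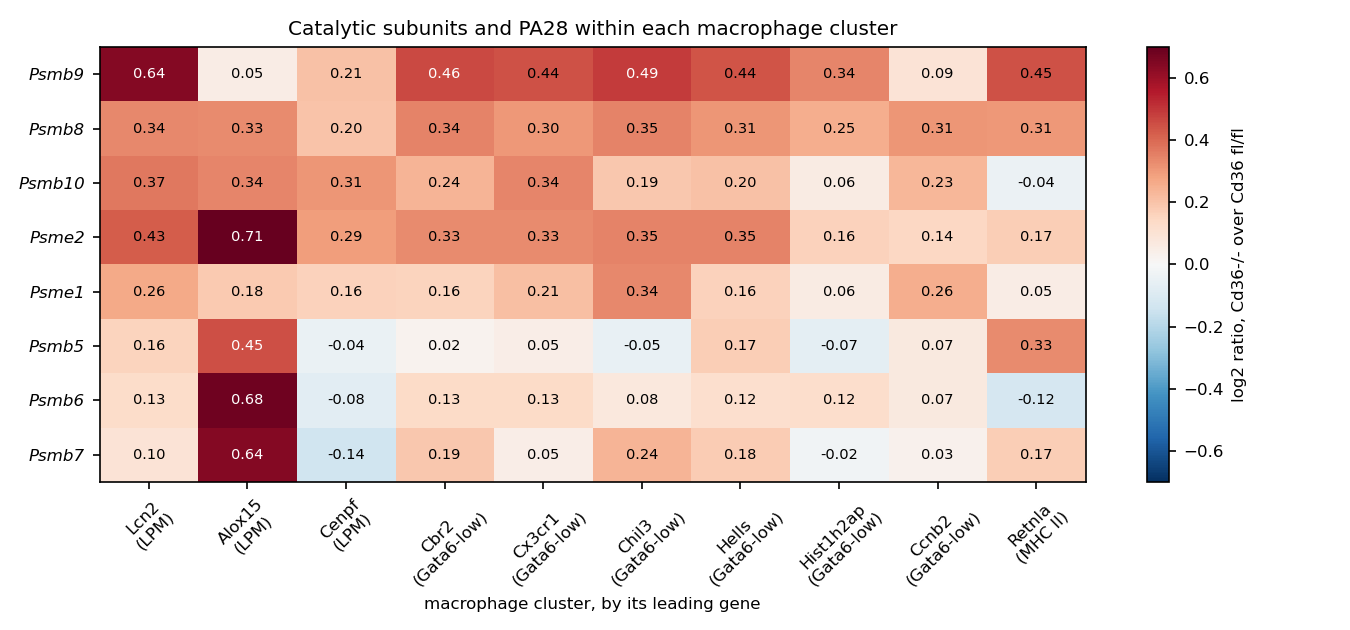
Log2 ratio of Cd36-/- over fl/fl (colour and printed value) for the inducible catalytic, PA28 and constitutive catalytic genes in each of the 10 macrophage clusters, named by leading gene. In the Alox15 cluster Psmb5, Psmb6 and Psmb7 reach 0.45, 0.68 and 0.64 while Psmb9 stands at 0.05.

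The cluster in which the share was lower in Cd36-/- was the LPM cluster led by Alox15, with 1002 Cd36-/- cells and 643 fl/fl cells. There the share was 50.4% in Cd36-/- (48.9 to 51.9) and 55.7% in fl/fl (53.6 to 57.7), a difference of -5.27 points (-7.81 to -2.72). The inducible genes were not lower in Cd36-/-, since they summed to 365 CPM in Cd36-/- and 299.7 CPM in fl/fl (0.28, 0.18 to 0.38). The constitutive genes differed more, with 359 CPM in Cd36-/- and 239 CPM in fl/fl (0.59, 0.48 to 0.70). Psmb6 had 153 CPM in Cd36-/- and 95.4 CPM in fl/fl, while its counterpart Psmb9 had 59.7 CPM in Cd36-/- and 57.7 CPM in fl/fl, so that Psmb9 made up 28.1% of the pair in Cd36-/- and 37.7% in fl/fl.

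Most of the proteasome was higher in the Cd36-/- cells of the Alox15 cluster. All members summed to 3979 CPM in Cd36-/- and 2937 CPM in fl/fl (0.44, 0.41 to 0.47), and 40 of 42 were higher with a median of 0.39, where 59.0% of all genes were higher with a median of 0.07. Of these, 27 were at least 25% higher where 22.8% of all genes were, and Psme2b was at least 20% lower where 10.6% were. The alpha ring gave 1194 CPM in Cd36-/- and 814 CPM in fl/fl (0.55), and the ATPases, near even over all macrophages, gave 315 CPM in Cd36-/- and 229 CPM in fl/fl (0.46). In the other LPM clusters a smaller part of all genes was at least 25% higher, 3.15% in the one led by Lcn2 and 6.31% in the one led by Cenpf. The macrophage markers of the Alox15 cluster summed to 14539 CPM in Cd36-/- and 10344 CPM in fl/fl, and their part in these ratios was not tested. Without this cluster, the LPM difference in inducible share was 5.02 points, against 2.83 points (1.80 to 3.85) with it.

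In B cells, which LysM-Cre does not target, the inducible catalytic genes together had 763 CPM in Cd36-/- and 691 CPM in fl/fl (0.14, 0.11 to 0.18). The B cell clusters differed, with 0.24 in the one led by Vpreb3 (0.17 to 0.30) and 0.10 in the one led by Zcwpw1 (0.06 to 0.15). The small cluster led by Gstt2 had 0.11 (-0.02 to 0.24). Psmb9 had 176 CPM in Cd36-/- and 156 CPM in fl/fl (0.17, 0.10 to 0.25), Psmb8 had 456 CPM in Cd36-/- and 414 CPM in fl/fl (0.14, 0.09 to 0.19), and Psmb10 had 131 CPM in Cd36-/- and 121 CPM in fl/fl (0.11, 0.02 to 0.20). PA28 was even there, with Psme1 at 283 CPM in both libraries and Psme2 at 179 CPM in Cd36-/- and 186 CPM in fl/fl. The inducible share of B cells was 1.94 points higher in Cd36-/- (0.985 to 2.88), a difference whose contrast with macrophages was not tested. Psmd14, with 130 CPM in Cd36-/- and 104 CPM in fl/fl (0.33, 0.24 to 0.42), was the 1 member of 42 at least 25% higher, where 3.91% of all genes were, and none was at least 20% lower, against 3.74%. Macrophage markers in B cells stood at 6.28% of the macrophage level in Cd36-/- and 4.80% in fl/fl, and their source and their part in these values were not tested.

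The smaller classes allowed less. In T cells 8 of 42 members were at least 25% higher in Cd36-/- where 17.6% of all genes were, and none was at least 20% lower, against 10.2%. They were Psma4 (log2 ratio 0.50), Psmb2 (0.33), Psmb10 (0.34), Psmd2 (0.43), Psmd8 (0.33), Psmd9 (0.34), Psmd10 (0.42) and Psme2b (0.33). In NK cells 8 were that much higher where 21.6% of all genes were (Psma1 0.44, Psma4 0.60, Psma5 0.40, Psmb5 0.45, Psmc6 0.64, Psmd5 0.56, Psmd7 0.37, Psme2 0.36), and 2, Psmc1 (-0.34) and Psme2b (-0.40), were at least 20% lower where 17.6% were. In cDC2 5 were higher where 18.7% were (Psma5 0.42, Psmd5 0.49, Psmd9 0.54, Psmd12 0.82, Psme4 0.81), and Psmd2 (-0.57) was lower where 12.2% were. The shares of members higher by that much lay near those of all genes in T and NK cells and under it in cDC2, and the shares lower by that much lay under those of all genes in these classes. In direction, 38 of 42 members were higher in T cells where 59.7% of all genes were, 32 of 42 in NK cells where 54.2% were, and 32 of 42 in cDC2 where 57.2% were.

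Psma4, an alpha ring gene, was past the limit in both T and NK cells. It had 157 CPM in Cd36-/- and 111 CPM in fl/fl T cells (0.50, 0.26 to 0.74), and 187 CPM in Cd36-/- and 123 CPM in fl/fl NK cells (0.60, 0.28 to 0.93). The inducible catalytic genes summed to 888 CPM in Cd36-/- and 772 CPM in fl/fl T cells (0.20, 0.11 to 0.30), to 843 CPM in Cd36-/- and 701 CPM in fl/fl NK cells (0.27, 0.13 to 0.41), and to 976 CPM in Cd36-/- and 840 CPM in fl/fl cDC2 (0.22, 0.12 to 0.32). PA28 had ratios of 0.16 in T cells (0.05 to 0.26), 0.24 in NK cells (0.08 to 0.40) and 0.13 in cDC2 (0.01 to 0.26). Over all members the ratio was 0.19 in T cells (0.16 to 0.23), 0.17 in NK cells (0.12 to 0.22) and 0.14 in cDC2 (0.10 to 0.18), beside 0.13 in macrophages (0.12 to 0.14) and 0.06 in B cells (0.04 to 0.07). The median of all genes compared also differed by class, so the order of these ratios is not one of members alone. This median was 0.07 in T cells, 0.04 in NK cells, 0.05 in cDC2, -0.02 in macrophages and 0.01 in B cells. The inducible genes and PA28 were thus also higher in T and NK cells, which LysM-Cre does not target, and the differences between classes were not tested. Some other groups reached similar ratios there. The alpha ring had 0.24 in T cells (0.16 to 0.32) and 0.20 in NK cells (0.09 to 0.32). The constitutive catalytic genes had 0.12 in T cells (-0.02 to 0.26) and 0.30 in NK cells (0.11 to 0.49). The ATPases had smaller ratios, 0.11 in T cells and 0.08 in NK cells. Cell cycle markers in NK cells stood at 317 CPM in Cd36-/- and 85.9 CPM in fl/fl, and their part was not tested. Macrophage markers stood at 8.02% of the macrophage level in Cd36-/- T cells and 5.40% in fl/fl T cells, and at 8.92% in Cd36-/- NK cells and 6.69% in fl/fl NK cells.

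The inducible share differed by 1.19 points in T cells (-1.31 to 3.70), by -0.555 points in NK cells (-4.29 to 3.21) and by 2.34 points in cDC2 (-0.34 to 4.99). All of these intervals include 0.

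Genes around the proteasome were compared in the same macrophages, where 44.0% of all genes compared were higher in Cd36-/- and their median was -0.02. All 5 assembly chaperones, which build the core particle, were higher in Cd36-/- (median 0.11), among them Pomp, with 313 CPM in Cd36-/- and 274 CPM in fl/fl (0.19, 0.17 to 0.22), and Psmg1 (0.19). All 4 genes of the list for the NRF1 route, which raises proteasome genes when the proteasome is inhibited, were lower (median -0.12). The list also counts Nfe2l2 (-0.11), which encodes NRF2, a separate factor. Ddi2, the protease that releases NRF1, had 39.2 CPM in Cd36-/- and 53.6 CPM in fl/fl (-0.45, -0.52 to -0.38), and Nfe2l1, which encodes NRF1, had a ratio of -0.13. Partners bound to the proteasome, such as the deubiquitinase gene Usp14 (0.05), were even, with 4 of 8 higher and a median of 0.02.

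MHC class I presentation, which uses the peptides, had 9 of 13 genes higher and a median of 0.13, where 44.0% of all genes were higher. In macrophages 1.22% of all genes were at least 25% higher. Past the limit of 25% were the class I gene H2-Q7 (0.48), Tap1, with 49.6 CPM in Cd36-/- and 37.8 CPM in fl/fl (0.39, 0.32 to 0.47), and B2m, the light chain of class I, with 4506 CPM in Cd36-/- and 3574 CPM in fl/fl (0.33). The chaperone Pdia3 was lowest at -0.22. The interferon-gamma axis had 9 of 11 genes higher and a median of 0.37, the highest of the lists. Its transcription factor Irf1 had 44.5 CPM in Cd36-/- and 25.5 CPM in fl/fl (0.80, 0.72 to 0.88), and the GTPase Gbp2 had 125 CPM in Cd36-/- and 82.5 CPM in fl/fl (0.60, 0.55 to 0.65). The receptor gene Ifngr1 was lower, at -0.19. In B cells the same list had 7 of 13 genes higher and a median of 0.08. That count lay near the share over all genes, 53.4%, whose median was 0.01. Irf1 had 35.2 CPM in Cd36-/- B cells and 27.9 CPM in fl/fl B cells (0.34, 0.16 to 0.51). In NK cells the list median was 0.03, against 0.04 for all genes, with Irf1 at 0.03 (-0.43 to 0.49). It was 0.13 in T cells, against 0.07 for all genes, and 0.24 in cDC2, against 0.05.

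**Figure D5:**
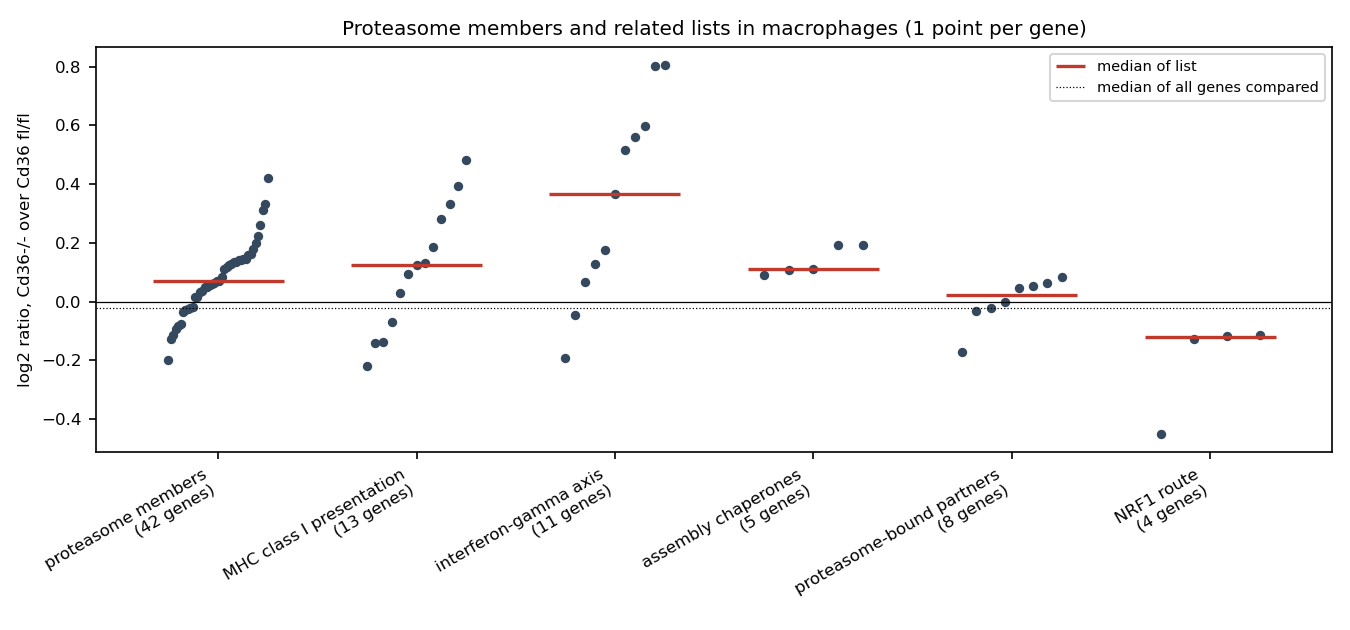
Log2 ratio of Cd36-/- over fl/fl in macrophages (y axis), 1 point per gene, for the proteasome members and 5 related gene lists (x axis); red lines are list medians and the dotted line is the median of all genes compared, -0.02. The interferon-gamma axis has the highest median, 0.37, and the 4 genes of the NRF1 route list, Nfe2l2 among them, all lie below 0.

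The plot of lists puts the median of the proteasome members, 0.07, between the assembly chaperones and the bound partners. The list medians come from the same pair of libraries and are descriptions.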

How the data were processed

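Total peritoneal cells were profiled with 10x Genomics 3′ chemistry, per the labels' protocols. The deposited values are UMI counts for each gene in each barcode, from Cell Ranger and mm10 per the submitters' processing notes, and the matrices name software version 3.0.0 per the file headers. Other settings are not given in the sources used here. Barcodes with under 200 genes or over 10% mitochondrial UMIs were removed, then predicted doublets (1042 in Cd36-/- and 834 in fl/fl). Cells of both libraries were clustered with scanpy 1.11.5 and leidenalg 0.10.2 (2000 variable genes without the proteasome genes, 40 components, 20 neighbours, resolution 1). Of 26 clusters, 22 were named from marker lists, with naming limits set after the data were seen. UMIs were summed per class and library and scaled to CPM. With 1 library per genotype there is no test. Intervals are exact (Poisson for levels, conditional binomial for ratios, Clopper-Pearson for shares) at 95%, and UMI counts limit them to counting error. Ratios were compared for genes with a mean of at least 10 CPM, and all 45 members were accounted for. Values are given for the catalytic genes, the activators, the members with the highest level of each role, the 3 highest and 3 lowest ratios in macrophages, members past the fold in classes of at least 200 cells per library, and the leading genes of each list. Shared 3′ sequence was counted as 31-base words in the last 300 bases of GENCODE M21 transcripts. The members and gene lists were chosen with earlier results of these data known. One related list and some genes of the others are not reported here.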

Additional observations from a re-analysis of the deposited data

Results flagged for a closer look

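Psmd2, a scaffold of the base of the regulatory particle, differed in direction between classes. Its log2 ratio of Cd36-/- over fl/fl was 0.43 in T cells, with 51.0 CPM in Cd36-/- and 38.0 CPM in fl/fl. It was -0.11 in macrophages, with 59.0 CPM in Cd36-/- and 63.8 CPM in fl/fl, and within that class 0.09 in LPM (-0.02 to 0.21), with 53.4 CPM in Cd36-/- and 50.1 CPM in fl/fl, and -0.19 in Gata6-low macrophages (-0.26 to -0.11), with 61.5 CPM in Cd36-/- and 70.0 CPM in fl/fl. It was -0.57 in cDC2, with 37.8 CPM in Cd36-/- and 56.0 CPM in fl/fl. The counting interval lay above 0 in T cells and below 0 in macrophages and cDC2, and the difference between classes was not tested. Of its 3′ words, 50.9% also occur in pseudogenes.

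The inducible share was 3.45 points higher in Cd36-/- over all macrophages and -5.27 points different in the Alox15 cluster of large peritoneal macrophages, whose interval lies below 0. This difference between clusters was not tested.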

How the results depend on the processing

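No paired analysis was possible because there is 1 library per genotype, and no replicate could be left out. No difference whose counting interval excluded 0 changed direction. The 2 macrophage members at least 25% higher became 1 when mitochondrial and ribosomal protein genes were left out of the total and 0 at 1.5-fold. The summed macrophage ratio of 0.13 became 0.15 with cells weighted equally, 0.14 with a per-cell marker gate, 0.11 without mitochondrial and ribosomal protein genes, 0.15 when centred on all genes and 0.14 without cycling clusters. The summed macrophage level in Cd36-/- was 5152 CPM and 5147 CPM at mitochondrial limits of 5% and 20%, 5142 CPM at 500 genes per cell, 5125 CPM with doublets kept, 5143 CPM at resolution 2, 5055 CPM with equal weights, 5146 CPM with the gate, 7471 CPM without mitochondrial and ribosomal protein genes, 5137 CPM without cycling clusters and 5283 CPM without the Alox15 cluster. In fl/fl it was 4704 CPM at the 20% limit, 4703 CPM at 500 genes, 4671 CPM with doublets, 4705 CPM at resolution 2, 4543 CPM with equal weights, 4656 CPM with the gate, 6932 CPM without mitochondrial and ribosomal protein genes, 4649 CPM without cycling clusters and 4848 CPM without the Alox15 cluster. The macrophage inducible share in Cd36-/- was 61.7% with equal weights, 61.8% without cycling clusters and 61.9% without the Alox15 cluster. In fl/fl it was 58.3% with equal weights, 58.4% with the gate and 58.4% without cycling clusters. Without the Alox15 cluster the macrophage difference was 3.97 points and the LPM share in Cd36-/- was 60.5%. Over all alternatives run, the macrophage share difference lay between 3.18 and 3.97 points, that of the Alox15 cluster between -5.52 and -3.73, and the macrophage ratio of Psmb9 between 0.40 and 0.48. The T cell share difference changed sign, from -1.93 to 2.27, and in B cells the ratio of Psmb5 ran from -0.07 to 0.06, that of Psmb6 from -0.05 to 0.01 and that of Psme1 from -0.04 to 0.05. Leaving out cycling cells or the Alox15 cluster, and finding that cluster again under other filters, were chosen after seeing the data. The causes of these shifts were not tested.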
